A study of Mus musculus with 6 samples.

Results

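The genes described here are 30 genes of cholesterol synthesis, its control by SREBP2, and cholesterol uptake, transport, storage and efflux, taken by symbol from a count table of 23337 genes. All 30 symbols were found and all 30 passed the filter on low counts, so none is missing from what follows. The cells were AT2 cells (alveolar type II), which make the surfactant of the lung and can also divide and give rise to the thin alveolar type I cells. The mutant genotype was SpC-CreER/Dlk1flox/ROSA-Tomato, that of the wild-type mice SpC-CreER/ROSA-Tomato, so both groups had the Cre driven by the surfactant protein C promoter and the red Tomato reporter, and the mutants alone had the floxed Dlk1. Both groups had acute lung injury from Pseudomonas aeruginosa, and Tomato-positive cells were sorted and sampled 10 days after it. Dlk1 encodes a membrane protein related to the Notch ligands. One label also speaks of culture for 8 days, and the labels do not settle whether cells were cultured before the RNA was taken. There were 3 mutant and 3 wild-type libraries, each labelled as a sample of its own with no word on whether the 3 of a group were different animals. All p-values therefore measure only how these samples spread, which may be technical in part.

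Cholesterol is built from acetyl-CoA through mevalonate, squalene and lanosterol. When the membrane of the endoplasmic reticulum is low in sterol, SCAP carries the transcription factor SREBP2 to the Golgi, where it is cut free and turns on the synthesis genes and the LDL receptor, and INSIG proteins hold SCAP back when sterol is plentiful. When sterol is high, oxysterols activate the liver X receptors (LXR), which turn on the exporters ABCA1 and ABCG1. AT2 cells make and take up cholesterol as part of surfactant, which they store in lamellar bodies.

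The library totals were 23718958 to 30695994 counts in the mutant and 22511461 to 25332204 counts in the wild-type libraries, and the 30 genes held 0.900% to 1.06% and 0.907% to 0.986% of them. Sftpc, the surfactant protein C gene that defines AT2 cells, took 4.52% to 4.91% of counts in mutant and 4.99% to 5.42% in wild-type libraries, and all 10 AT2 markers were abundant in every library. Dlk1 had 2, 0 and 0 counts in the mutants (here and below in the order of libraries 1 to 3), and in the wild types it had 2, 0 and 2, at or under the floor of 3 counts (0.0977 to 0.133 CPM, counts-per-million, by counting error only), so it did not check the genotype and a fold change cannot be given. Mutant 1 stood apart. Of the markers of other cells it had the highest level of the 6 libraries for 8 of 8 fibroblast, 8 of 8 leukocyte and lymphocyte, 6 of 6 endothelial, 5 of 5 ciliated, 5 of 6 club cell and 10 of 12 macrophage and monocyte genes, where it was the highest library for 23.9% of all genes. The AT1 markers did not share this, with mutant 1 highest for 3 of 8 and a sum of 2747 CPM of the library total, against 2523 to 3099 CPM in the other 5. Its fibroblast markers summed to 217 CPM of the library total, against 3.37 to 7.14 CPM in the other 5 libraries, and its leukocyte and lymphocyte markers to 471 CPM, against 29.8 to 48.3 CPM. Wild type 2 was the single library with high Xist (185 CPM) and low Y-linked Ddx3y (2.88 CPM), so the wild types were not all from 1 animal. Results are therefore also given without mutant 1.

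The promoter stretches of 5 members are shown because they hold, or in part lack, the short sequence words known from sterol-regulated promoters. Each runs 5′ to 3′ over the 150 bases before the gene's start in RefSeq on build GRCm38.p6. Capitals mark matches on either strand to 4 words: the SREBP element TCACNCCAC, the CCAAT box of the factor NF-Y (read ATTGG on the other strand), the E-box CACGTG, and TGACC followed 5 bases later by TAACC, a spaced repeat like the LXR element known in Abca1, which was added after its sequence was seen. Hmgcs1 is at chr13:119690201-119690350 (plus strand), Lss at chr10:76531455-76531604 (plus), Nsdhl at chrX:72918371-72918520 (plus), Insig1 at chr5:28071262-28071411 (plus) and Abca1 at chr4:53159896-53160045 (minus).
Hmgcs1: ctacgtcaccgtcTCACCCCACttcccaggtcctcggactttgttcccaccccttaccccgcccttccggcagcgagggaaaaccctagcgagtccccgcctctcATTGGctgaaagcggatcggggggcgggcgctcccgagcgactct
Lss: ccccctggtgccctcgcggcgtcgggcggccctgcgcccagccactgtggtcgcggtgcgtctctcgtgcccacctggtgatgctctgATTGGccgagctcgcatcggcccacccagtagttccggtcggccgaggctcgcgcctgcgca
Nsdhl: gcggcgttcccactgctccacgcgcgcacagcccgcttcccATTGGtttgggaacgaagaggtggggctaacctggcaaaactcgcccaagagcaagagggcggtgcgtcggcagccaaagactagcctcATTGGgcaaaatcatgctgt
Insig1: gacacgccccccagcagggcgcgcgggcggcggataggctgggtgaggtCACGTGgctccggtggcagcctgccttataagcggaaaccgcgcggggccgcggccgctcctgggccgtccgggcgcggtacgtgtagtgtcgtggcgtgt
Abca1: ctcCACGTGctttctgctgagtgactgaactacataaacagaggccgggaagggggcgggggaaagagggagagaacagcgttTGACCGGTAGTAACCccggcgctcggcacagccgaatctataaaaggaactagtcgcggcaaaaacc

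The table of promoters held 23 of the 30 members, 14 of them synthesis genes, and the 250 bases before each start were searched. The CCAAT box was found in 13 of 14 synthesis genes and in 5 of the 9 other members, against 40.3% of the 9216 tested genes with a promoter in the table and 33.9% of all 32851 promoters. The exception among the synthesis genes was Acat2. The SREBP word was found in Hmgcs1 alone, against 1.26% of the tested genes and 1.05% of all promoters. The E-box was found in 6 members (Abca1, Dhcr7, Hsd17b7, Insig1, Sc5d and Scap), against 9.85% of the tested genes and 6.02% of all promoters. The LXR-like word was found in Abca1 alone of the members, and in 0.076% of the tested genes and 0.0457% of all promoters. It was added after the Abca1 sequence was seen, so that match was fixed in advance and is a description only. In the printed stretches no 2 matches overlap. A match describes letters in these windows and says nothing of binding in these cells.

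Per length of transcript the members spanned a wide range, which the plot of levels per kilobase shows. Levels between genes are given as TMM-normalised CPM per kilobase of the principal GENCODE M21 transcript. Npc2, a small lysosomal protein that takes cholesterol from internal vesicles, stood far above the rest at 1695 ± 202 CPM per kilobase in mutant and 1625 ± 101 in wild-type libraries (SD, n = 3 each). Insig1 came next, at 127 ± 23.2 and 146 ± 25.1 CPM per kilobase, followed within the spread of their libraries by Fdps (105 ± 14.1 and 132 ± 6.54) and Hmgcs1 (109 ± 27.6 and 118 ± 38.0). Npc1, which receives cholesterol from Npc2 and passes it out of the lysosome, stood at 84.6 ± 5.69 and 91.9 ± 6.61 CPM per kilobase, and Soat1, which esterifies cholesterol for storage, at 77.5 ± 15.3 and 76.8 ± 1.49. The exporters were at the other end, Abca1 at 4.81 ± 0.99 and 3.05 ± 0.31 CPM per kilobase. Abcg1 had the lowest mean in both groups, at 3.02 ± 4.41 and 0.49 ± 0.48 CPM per kilobase. Its mutant mean was raised by mutant 1, so that rank is of means and not of every library.

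**Figure D1:**
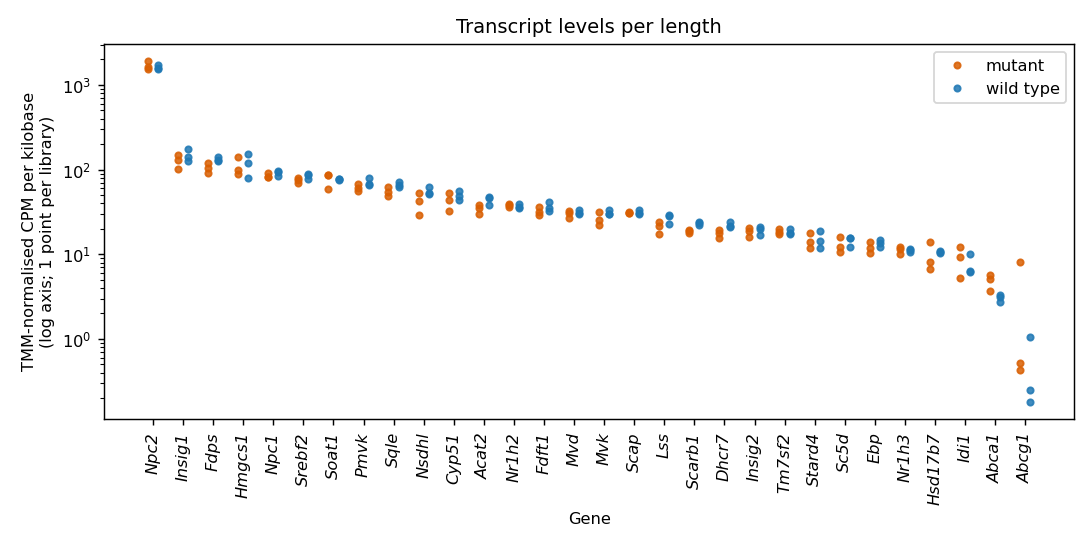
Transcript level of each of the 30 genes in TMM-normalised CPM per kilobase on a log axis, ordered by the wild-type mean, with 1 point per library (mutant left, wild type right of each gene). Npc2 stands far above the other genes in every library. Abca1 and Abcg1 have the lowest means, and Abcg1 has 1 mutant point far above the other libraries.

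Mutant and wild-type cells were set against each other to learn how AT2 cells of the 2 genotypes differ in expression after injury. Synthesis genes were on the whole slightly lower in the mutant libraries: 15 of 17 had a negative log2 fold change, with a median of -0.21, where 48.9% of all 12899 tested genes were negative and their median was 0.0048. The members were chosen with earlier results of these data known, so this contrast with all genes is a description only. With edgeR's quasi-likelihood test and p-values adjusted by Benjamini-Hochberg over all genes, 0 of the 30 members passed 5%, and of all genes 0 of 12899 did (0%). At an unadjusted p under 0.05, 4 of the 17 synthesis genes were lower and 0 were higher, where 373 (2.89%) and 476 (3.69%) of all genes were, and DESeq2 called 46 genes (0.306% of those it tested) and none of the 29 members to which it gave an adjusted p, Abcg1 having none. Without mutant 1 the median was -0.13 and 12 of 17 were negative, where 51.9% of all genes were, and without mutant 2 the median was -0.37. In bulk RNA, fewer cells of a type and less RNA per cell cannot be told apart.

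In the mevalonate steps, 6 of 7 genes were negative, and 4 of 7 without mutant 1. Fdps, which makes farnesyl diphosphate, the branch point to sterols, dolichol and prenylated proteins, stood at 126, 165 and 146 TMM-normalised CPM (the unit of all members' levels below) in the mutants and at 193, 177 and 177 CPM in the wild types. The groups did not overlap, and mutant 1 was lowest. Its log2 fold change was -0.32 ± 0.11 (SE; 95% interval -0.58 to -0.06; edgeR adjusted p = 0.737), and -0.23 without mutant 1. Acat2, the cytosolic thiolase that joins acetyl-CoA units at the start of the route, stood at 66.6, 86.4 and 79.1 CPM in the mutants and 108, 104 and 85.4 CPM in the wild types. Mutant 2 lay above wild type 3, so the groups overlapped, with a log2 fold change of -0.36 ± 0.13 (edgeR adjusted p = 0.737). Its paralog Acat3 had at most 50 counts in any library.

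Hmgcs1, which makes HMG-CoA and is a classical SREBP2 target, did not separate by group. It stood at 306, 486 and 341 CPM in the mutants and 273, 413 and 536 CPM in the wild types, so that its lowest and highest values were both wild-type libraries. Its log2 fold change of -0.11 had a 95% interval of -0.74 to 0.52. Idi1, the isomerase of isopentenyl diphosphate, had the same wide spread, at 16.1, 36.6 and 28.1 CPM in the mutants and 18.8, 19.5 and 30.1 CPM in the wild types, and was the member of these steps with a positive log2 fold change (0.24, interval -0.50 to 0.98). The kinases and decarboxylase between them had narrower intervals, with log2 fold changes of -0.24 for Mvk, -0.21 for Pmvk and -0.08 for Mvd. Mvk was -0.13 without mutant 1 and -0.38 without mutant 2, Pmvk -0.11 without wild type 1 and Mvd 0.0057 without mutant 1.

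In the squalene and lanosterol steps all 3 genes were negative, with and without mutant 1. Lss, which closes squalene epoxide into the lanosterol ring, stood at 81.1, 111 and 99.9 CPM in the mutants and 136, 106 and 131 CPM in the wild types, and wild type 2 lay inside the mutant range. Its log2 fold change was -0.36 ± 0.14 (edgeR adjusted p = 0.737). Sqle, the squalene epoxidase that sets the pace of the later route, stood at 133, 174 and 151 CPM in the mutants and 171, 182 and 195 CPM in the wild types, with mutant 2 just above wild type 1. Its log2 fold change was -0.26 ± 0.11 (edgeR adjusted p = 0.737). Fdft1, the squalene synthase gene, had -0.17, but 18.3% of its annotated exon bases overlap Ctsb on the opposite strand, whose 12492 to 19423 counts per library could share reads with it, since the sources used here do not give the handling of strand. Other members overlap too. Fdps shares 26.7% with Gm43738 on the same strand, which has no row in the counts. Cyp51 shares 3.76% with Akap9 and Lss 3.53% with 4930483K19Rik, both counted and on the opposite strand.

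Among the genes from lanosterol to cholesterol 6 of 7 were negative with a median of -0.16, and 5 of 7 without mutant 1 with a median of -0.043. Dhcr7, which carries out the last reduction to cholesterol, stood at 43.7, 54.6 and 50.0 CPM in the mutants and 67.6, 59.9 and 60.0 CPM in the wild types. The groups did not overlap, with a log2 fold change of -0.34 ± 0.11 (edgeR adjusted p = 0.737), and -0.26 without mutant 1. Nsdhl, an X-linked demethylation enzyme, had the most negative value of the 30 genes, at 62.6, 115 and 92.1 CPM in the mutants and 136, 111 and 116 CPM in the wild types. Mutant 1 was far below the rest and mutant 2 lay within the wild-type range, and the log2 fold change of -0.43 was -0.22 without mutant 1. Cyp51, the lanosterol demethylase, stood at 128, 208 and 171 CPM in the mutants and 174, 192 and 220 CPM in the wild types, again with mutant 1 lowest, and its log2 fold change of -0.21 was -0.043 without that library. The isomerase gene Ebp, also X-linked, had -0.15 and the desaturase gene Sc5d -0.16, both with intervals that held 0. Without mutant 1 they were -0.27 for Ebp and -0.040 for Sc5d, and without mutant 2 they were -0.058 and -0.34. Wild type 2, the library with high Xist, was the lowest wild type for both Nsdhl and Ebp. The same library was the lowest wild type for 7 of the 17 synthesis genes and 10 of the 30 members. Whether this place goes with X linkage was not tested. Hsd17b7, a ketosteroid reductase gene, stood at 31.2, 65.2 and 37.8 CPM in the mutants and 49.5, 50.3 and 47.8 CPM in the wild types, so that the mutants spread on both sides of closely spaced wild types. Tm7sf2, a sterol reductase gene, had a log2 fold change of 0.02.

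Fdps and Dhcr7 were thus the 2 of 17 synthesis genes whose groups did not overlap with the mutants lower, where 6.43% of all genes did so. For 6 of the 17, each mutant had a lower value than its same-numbered wild type, where 15.6% of all genes were. Mutant 1 was the lowest library for 14 of the 17, where it was for 21.2% of all genes. The summed level of the 17 genes was 1355, 1951 and 1587 CPM in the mutants and 1767, 1850 and 2064 CPM in the wild types, so mutant 2 lay inside the wild-type range. The 10 AT2 markers were also lowest as a sum in mutant 1, at 135735 CPM of the library total, against 144418 to 171463 CPM in the other 5, and the part of the markers of AT2 and of other cells in these values was not tested.

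**Figure D2:**
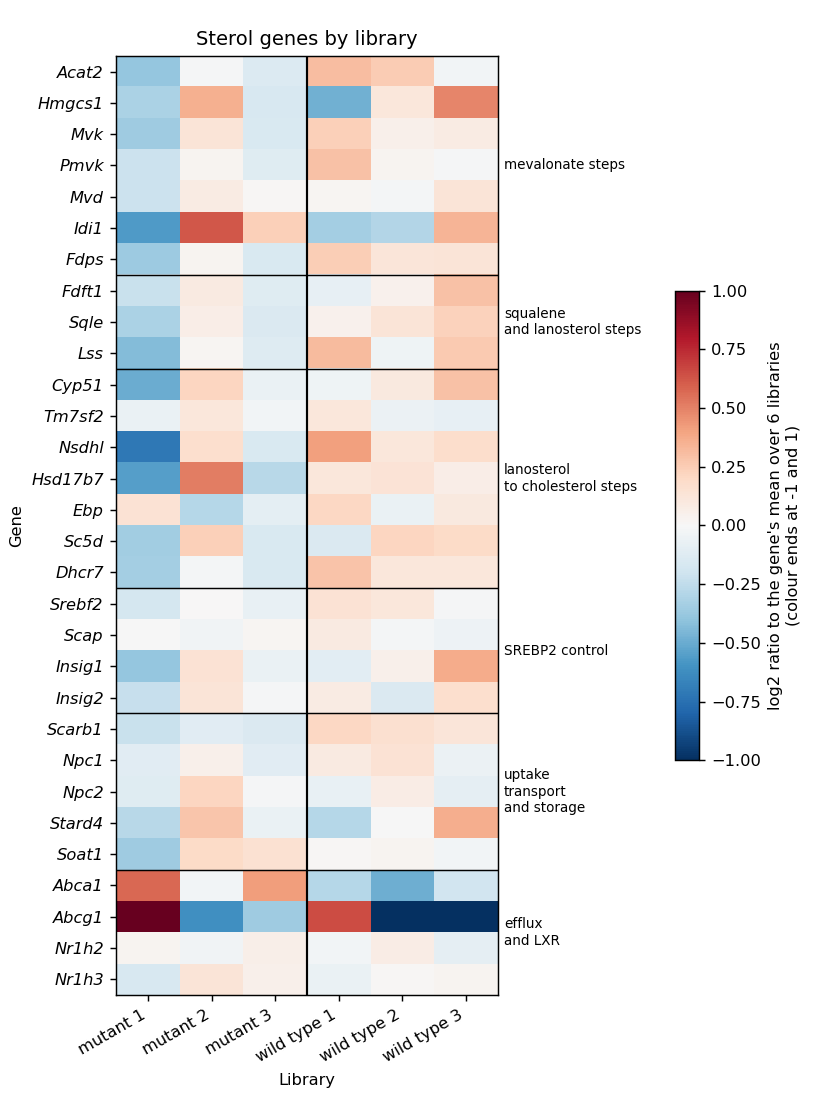
Level of each of the 30 genes in each library as the log2 ratio to the gene's mean over the 6 libraries, mutants left and wild types right, with genes grouped by role and the colour scale ended at -1 and 1. Mutant 1 is the lowest library for 14 of the 17 synthesis genes, while Hmgcs1, Idi1, Insig1 and Stard4 are high in mutant 2 and wild type 3.

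The synthesis genes did not follow a common order across the wild types. Wild type 1 was the highest wild type for 9 of the 17 (Acat2, Dhcr7, Ebp, Fdps, Lss, Mvk, Nsdhl, Pmvk and Tm7sf2), wild type 3 for 6 (Cyp51, Fdft1, Hmgcs1, Idi1, Mvd and Sqle) and wild type 2 for Hsd17b7 and Sc5d. The highest wild type exceeded the lowest 1.96-fold for Hmgcs1 and 1.60-fold for Idi1, against 1.09-fold for Fdps and 1.13-fold for Dhcr7. The 9 genes highest in wild type 1 had a median log2 fold change of -0.32 and the 6 highest in wild type 3 one of -0.14, and without mutant 1 these were -0.23 and -0.018. That grouping was made from these values and is a description only.

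Of the genes of SREBP2 control, Scap and Srebf2 had narrower intervals than Insig2 and Insig1. Srebf2, the gene of the transcription factor itself, stood at 357, 403 and 382 CPM in the mutants and 445, 435 and 398 CPM in the wild types. Mutant 2 lay just above wild type 3, and the log2 fold change was -0.16 ± 0.09 (95% interval -0.37 to 0.04; edgeR adjusted p = 0.739). Scap, the escort of SREBP2, was nearly level at 131, 129 and 133 CPM in the mutants and 140, 129 and 127 CPM in the wild types. It had a log2 fold change of -0.01 with an interval of -0.17 to 0.16, which leaves room for changes between 0.886-fold and 1.11-fold. Insig1, itself an SREBP2 target and thus a feedback gene, stood at 277, 402 and 348 CPM in the mutants and 337, 377 and 469 CPM in the wild types, with a log2 fold change of -0.20 (interval -0.61 to 0.20). It was -0.072 without mutant 1, -0.34 without mutant 2 and -0.063 without wild type 3. Its level was highest in wild type 3 and, among mutants, in mutant 2, as Hmgcs1 was. Insig2, the other retention gene, stood at 43.4, 55.5 and 50.4 CPM in the mutants and 53.8, 46.0 and 57.2 CPM in the wild types. Its log2 fold change was -0.07 (interval -0.37 to 0.22). None of the 4 had an unadjusted p under 0.05.

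Scarb1, the scavenger receptor that takes up cholesterol from HDL, had the smallest p of the 30 genes in the edgeR fit to all 6 libraries, while Abca1 had a smaller one than Scarb1 in DESeq2, in limma-voom, with the replicate block and without mutant 1. It stood at 44.7, 48.2 and 47.1 CPM in the mutants and 60.3, 58.4 and 56.6 CPM in the wild types. Every mutant library lay below every wild-type library, and the libraries of each group lay close together. The mean was 46.7 ± 1.82 CPM in the mutants and 58.5 ± 1.84 CPM in the wild types (SD, n = 3 each). The log2 fold change was -0.33 ± 0.07 (95% interval -0.50 to -0.15). Its unadjusted p was 0.00316 and its edgeR adjusted p 0.737, so it did not pass. Without mutant 1 the log2 fold change was -0.29, and with any other library left out it ran from -0.35 to -0.30.

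The lysosomal and storage genes showed no such separation. Npc2 stood at 5026, 6325 and 5427 CPM in the mutants and 5194, 5743 and 5142 CPM in the wild types, with mutant 1 lowest and mutant 2 highest. Npc1 stood at 425, 476 and 424 CPM in the mutants and 490, 509 and 442 CPM in the wild types, with a log2 fold change of -0.12 (interval -0.34 to 0.10). Soat1 stood at 501, 731 and 714 CPM in the mutants and 648, 652 and 629 CPM in the wild types, below all wild types in mutant 1 and above all of them in mutants 2 and 3. Its log2 fold change of 0.01 was 0.17 without mutant 1. Stard4, a cytosolic sterol carrier and SREBP2 target, had -0.05 and spread 1.56-fold among the wild types, again with wild type 3 highest and wild type 1 lowest. Of these 5 uptake, transport and storage genes, Scarb1 was the 1 whose groups did not overlap, with the mutants lower, as for 6.43% of all genes.

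Abca1, which exports cholesterol to lipid-poor apolipoproteins and is a direct LXR target, was the member with a clearly higher level in all mutants. It stood at 58.0, 38.2 and 52.0 CPM in the mutants and 32.0, 27.8 and 34.1 CPM in the wild types. No mutant overlapped a wild type, as for 5.23% of all genes in that direction, and mutant 2 was nearest to the wild types. The mean was 49.4 ± 10.2 CPM in the mutants and 31.3 ± 3.21 CPM in the wild types (SD, n = 3 each). The log2 fold change was 0.66 ± 0.16 (95% interval 0.27 to 1.05), or 1.58-fold (1.21 to 2.07). Its unadjusted p was 0.00498 and its edgeR adjusted p 0.737, so it did not pass, nor did it in DESeq2 (adjusted p = 0.0977). Without mutant 1 the log2 fold change was 0.53, and mutants 2 and 3 each lay above all wild types. Macrophage and monocyte markers summed to 403, 65.3 and 86.0 CPM of the library total in the mutants and 67.0 to 92.8 CPM in the wild types. Outside mutant 1 most of each sum was Cd14 and Cd68, so it says little of the other markers. Cd14 stood at 64.5, 31.3 and 35.6 CPM in the mutants and 50.4, 66.1 and 29.6 CPM in the wild types. Cd68 stood at 42.9, 18.4 and 18.9 CPM and at 15.2, 12.1 and 19.6 CPM. The part of macrophages and monocytes in the Abca1 level was not tested.

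Abcg1, the exporter that loads HDL and is abundant in macrophages, was high in 1 library. It stood at 47.3, 2.52 and 3.03 CPM in the mutants and 6.08, 1.04 and 1.47 CPM in the wild types. Mutant 1 stood far above the other libraries and wild type 1 was the next highest. The fitted log2 fold change of 2.64 ± 1.26 (95% interval -0.34 to 5.61; edgeR adjusted p = 0.739) was -0.031 without mutant 1. That fit kept wild type 1, the next highest library. Each mutant lay above its same-numbered wild type, as for 15.3% of all genes. With the replicate block the log2 fold change was 1.86 (edgeR adjusted p = 0.640). Of the 12 macrophage and monocyte markers 10 had mutant 1 on top, the exceptions being Marco (highest in wild type 1) and Cd14 (highest in wild type 2). Mrc1 stood at 37.2, 1.26 and 3.39 CPM of the library total in the mutants and 7.91, 0.711 and 1.97 CPM in the wild types, and Cybb at 74.9, 2.95 and 5.40 CPM in the mutants and 4.84, 1.03 and 2.53 CPM in the wild types. Mrc1, as Abcg1, was next highest in wild type 1 and Cybb in mutant 3. At 0 counts were Marco and C1qb in mutant 2 and C1qa and C1qb in wild type 2. High mutant 1 values were not particular to macrophage and monocyte markers, whose sum was 5.06-fold the mean of the other 5 libraries. That ratio was 49.6-fold for fibroblast, 18.4-fold for endothelial and 12.4-fold for leukocyte and lymphocyte markers. For ciliated and club cell markers it was 2.76-fold and 2.48-fold. These ratios do not rank the cell types, because abundant markers that rose less or not at all held much of some sums. Such markers were Cd14 and Cd68 (macrophages and monocytes), Cbr2 (club) and Tppp3 (ciliated). In mutant 1, Cbr2 (7246 CPM of the library total) lay within the other libraries' range of 4832 to 7725. Club marker Scgb1a1 reached 7223 CPM there, with at most 542 elsewhere. Ciliated marker Tmem212 reached 14.2 CPM, with at most 1.02 elsewhere. The part of any of these cell types in the Abcg1 level was not tested.

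The LXR genes themselves were level across the libraries. Nr1h2, which encodes LXR beta, stood at 75.9, 72.7 and 77.7 CPM in the mutants and 73.2, 78.6 and 70.0 CPM in the wild types. Nr1h3, which encodes LXR alpha, stood at 19.6, 23.9 and 22.7 CPM in the mutants and 21.0, 22.1 and 22.4 CPM in the wild types. The intervals of their log2 fold changes were -0.15 to 0.21 and -0.23 to 0.26.

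**Figure D3:**
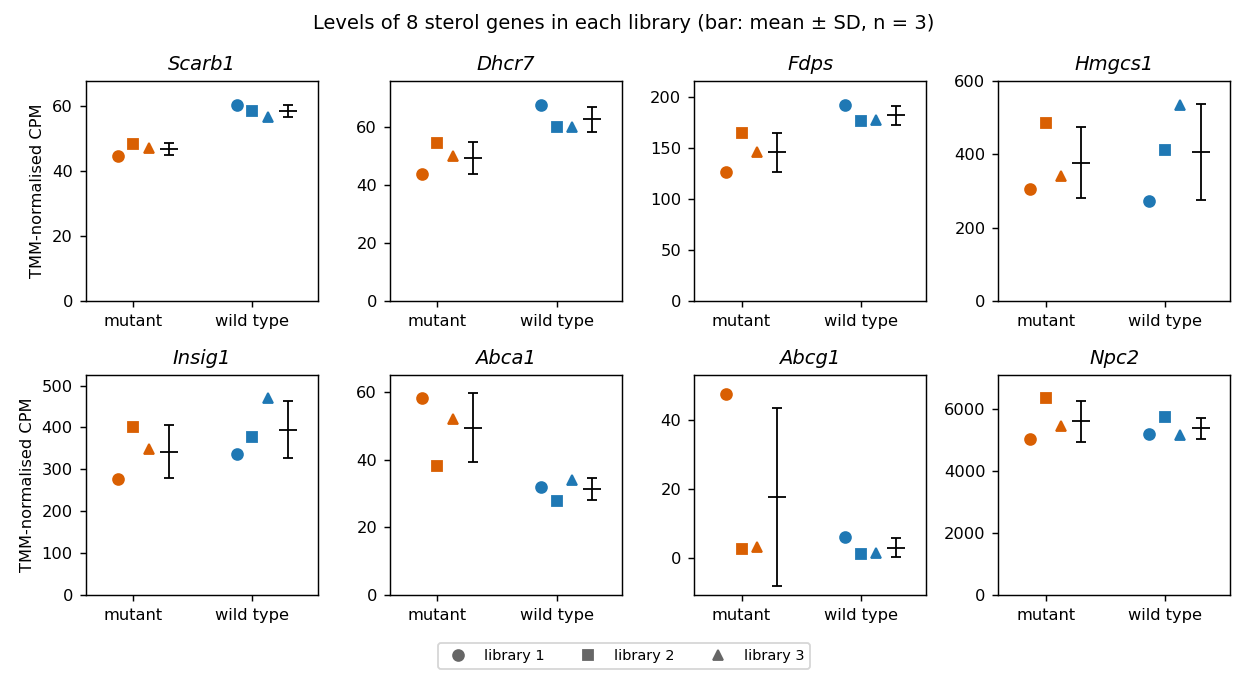
Level of 8 members in each library in TMM-normalised CPM, mutant left and wild type right, with symbols for libraries 1 to 3 of each group and bars for the mean ± SD (n = 3 each). Scarb1, Dhcr7 and Fdps are lower and Abca1 higher in every mutant than in every wild type, Hmgcs1 and Insig1 overlap widely, and Abcg1 is high in mutant 1 alone.

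**Figure D4:**
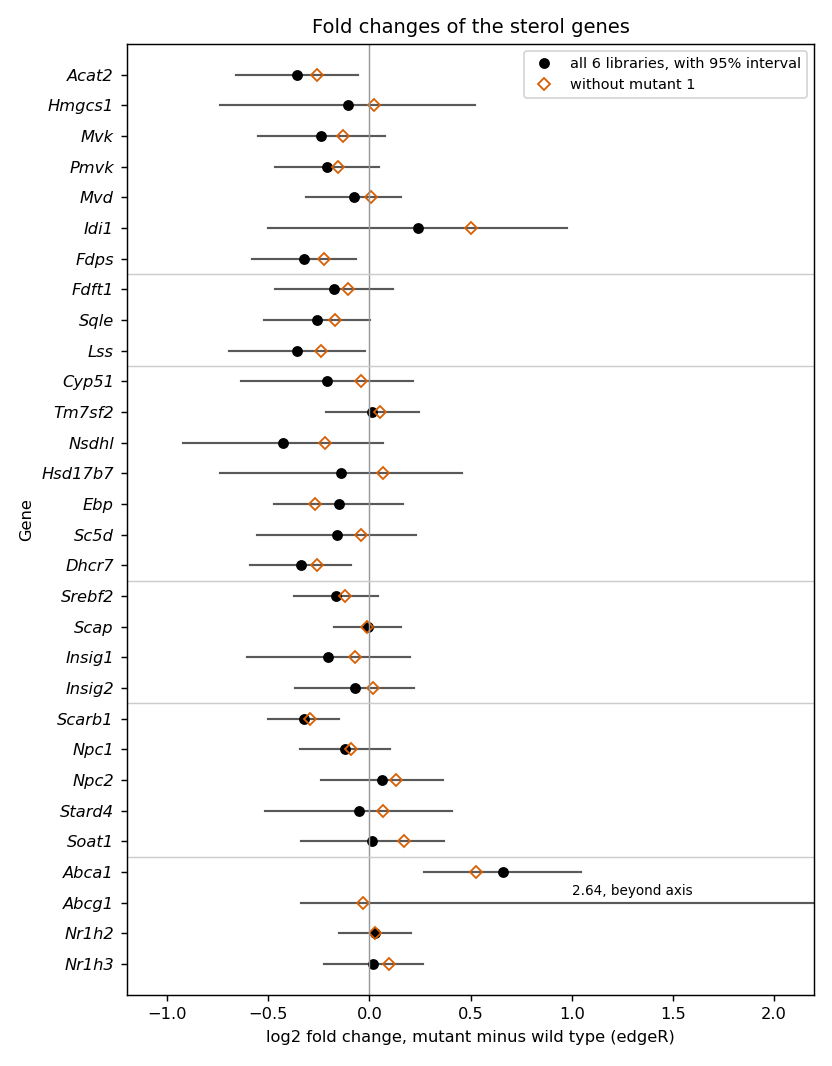
Log2 fold change, mutant minus wild type, of each of the 30 genes from the edgeR fit with all 6 libraries (filled points, bars for the 95% interval) and without mutant 1 (open diamonds). Most synthesis genes lie left of 0 and move towards it without mutant 1, Scarb1 and Abca1 stay on their sides, and Abcg1 (2.64, beyond the axis) lies at -0.031 without it.

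A further 42 genes of the same pathways were examined in lists which, like the members, were chosen with earlier results of these data known, and 37 were tested. Of the 10 other synthesis and branch enzymes all were negative, with a median log2 fold change of -0.19, against the 48.9% of all genes that were negative, and 9 of 10 were negative without mutant 1. Aacs, which returns ketone bodies to the sterol route as acetoacetyl-CoA, stood at 74.1, 95.5 and 90.6 CPM in the mutants and 132, 115 and 98.8 CPM in the wild types, without overlap (log2 fold change -0.41 ± 0.14; edgeR adjusted p = 0.737).

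In the 3 other lists of this kind the members were split. Of 8 genes of SREBP processing and sterol-regulated decay 6 were negative, with a median of -0.06. Rnf139, a ubiquitin ligase of the endoplasmic reticulum that responds to sterol, stood at 38.8, 49.4 and 43.8 CPM in the mutants and 33.6, 36.2 and 33.4 CPM in the wild types, with every mutant higher (log2 fold change 0.35 ± 0.11; edgeR adjusted p = 0.737), and 0.44 without mutant 1. Of 12 tested genes of uptake, transport and storage 7 were negative, with a median of -0.03, and the sterol transfer genes Gramd1b (0.31 ± 0.12) and Gramd1a (0.43 ± 0.21) had the smallest p. Gramd1a was 0.16 without mutant 1. Of 7 tested genes of efflux, LXR and oxysterol metabolism 3 were negative, with a median of 0.05, and Rxrb (-0.18) and Cyp27a1 (1.07, and 0.11 without mutant 1) had the smallest p. None of the 37 passed the test. At an unadjusted p under 0.05, 2 of them were lower and 2 higher, where 2.89% and 3.69% of all genes were, and the 5 untested genes (Soat2, Abcg4, Abcg8, Ch25h and Cyp7b1) had at most 36 counts in any library.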

How the data were processed

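The 6 RNA-seq libraries, 3 mutant and 3 wild-type, were made with a TruSeq mRNA kit and sequenced together on 1 flow cell, per the labels' protocols. The authors deposited raw gene counts in whole numbers, keyed by symbol, with 1 file per library. Per the submitters' processing notes the build was mm9 and the tools CASAVA and DESeq2. The sources used here do not give the aligner, counter, annotation or strand setting. Library totals were 22511461 to 30695994 counts, and reads carried no molecular identifiers.

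Groups came from sample titles. Genes were filtered with filterByExpr, which left 12899 genes with at least 99.65% of each library's counts, scaled by TMM and tested with edgeR 4.0.16 in R 4.3.3 (quasi-likelihood F-test, two-sided; fold changes are mutant over wild type), and p-values were adjusted by Benjamini-Hochberg over the tested genes, with a threshold of 5%. The procedure was tested on simulated counts with 200 changed genes in each of 5 runs. It recovered 22.1% of 1.5-fold, 57.3% of 2-fold and 78.5% of 4-fold changes, with a mean of 8.4 false calls per run. Most 1.5-fold changes were thus missed, so a gene that did not pass may still have changed. Of 135 listed genes 4 were matched by an older symbol. Full statistics are given for the 8 members with the smallest p and the leading member of each role, and for the 2 leading genes of each list of other pathway genes, of which some are not reported here. Members and lists were chosen with earlier results of these data known. Promoters came from RefSeq (GRCm38.p6) and transcript lengths and exon overlaps from GENCODE M21, on another build than the counts.

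Replicates differed by 18.4 to 76.7 chi-square units per degree of freedom within groups, which is above counting error, so none was counted as a repeat of another. Both groups carry the numbers 1 to 3, and the deviations from the group mean of libraries with a shared number had correlations of 0.26, 0.16 and 0.16 across 12964 genes, which by the rule used here pairs them. The pairing comes from these data, since no label gives a shared day or litter. The main fit did not use it, so single-gene values come from unpaired fits unless the replicate block is named. A fit without 1 library keeps the library of the same number in the other group. Alternatives were 2 other scalings, 2 other filters, DESeq2 1.42.0, limma-voom (limma 3.58.1), robust dispersion, the replicate block, and leaving out each library.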

Additional observations from a re-analysis of the deposited data

How the results depend on the processing

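None of the 30 genes was called under any of the 15 alternatives (other scalings, filters and tools, the replicate block and left-out libraries), except that DESeq2 gave Abcg1 no adjusted p and so did not test it, and over all genes DESeq2 called 46 (27 higher, 19 lower), edgeR without wild type 3 called 1 (Gpr133), and leaving out the other libraries called 0. The genes with an unadjusted p under 0.05 numbered 476 higher and 373 lower in edgeR, and 614 and 676 in limma-voom, which called 0. The median log2 fold change of the 17 synthesis genes was -0.21, between -0.22 and -0.20 under the other scalings, filters and tools, and between -0.37 (without mutant 2) and -0.13 (without mutant 1) with a library left out. That of the 13 control, transport and efflux genes was -0.01, and -0.08 to 0.02 with a library left out. With the replicate block the medians were -0.21 and -0.01, 0 genes were called, and the block changed no call. At an edgeR unadjusted p under 0.05 with the block, 5 of the 30 members were lower and 2 higher. Of all genes 360 and 507 were. Without the block 5 and 1 of the members were. The log2 fold changes of 16 of the 30 genes kept their sign under all 15 alternatives, among them Scarb1, Abca1, Fdps, Dhcr7, Acat2, Lss, Sqle and Srebf2. Signs that turned with a library left out were those of Hmgcs1 (-0.33 to 0.14), Mvd (-0.14 to 0.0057), Idi1 (-0.048 to 0.50), Hsd17b7 (-0.52 to 0.066), Tm7sf2 (-0.044 to 0.080), Scap (-0.041 to 0.033), Insig2 (-0.16 to 0.019), Npc2 (-0.040 to 0.13), Stard4 (-0.22 to 0.13), Soat1 (-0.084 to 0.17), Nr1h2 (-0.012 to 0.072), Nr1h3 (-0.045 to 0.098) and Abcg1 (-0.031 to 3.81). With their sign kept, values also moved over 1.5 times with a library left out for Nsdhl (-0.65 to -0.22), Cyp51 (-0.39 to -0.043), Mvk (-0.38 to -0.13), Sc5d (-0.34 to -0.040), Insig1 (-0.34 to -0.063), Sqle (-0.37 to -0.17), Fdft1 (-0.27 to -0.066), Ebp (-0.27 to -0.058), Pmvk (-0.28 to -0.11) and Npc1 (-0.18 to -0.080). limma-voom gave 0.014 for Scap and 0.015 for Insig2, and the replicate block -0.0062 for Soat1. Leaving out mutant 1 and wild type 2 together, chosen after seeing the data, gave 0.041 for Hmgcs1, 0.090 for Hsd17b7, 0.029 for Sc5d, 0.048 for Stard4 and -0.42 for Abcg1, and left the synthesis median at -0.16. The cause of these turns was not tested. The lowest count of a member in any library was 26 (Abcg1), and the others had at least 411, so depth limits Abcg1 most.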
